A study of Mus musculus with 12 samples.

Results

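The antioxidant programme of pre-iPSCs was followed through 10 genes, namely Nfe2l2, which encodes the transcription factor NRF2, and Nqo1, Hmox1, Gclc, Gclm, Slc7a11, Gsr, Gpx2, Txnrd1 and Srxn1, which encode redox enzymes and a transporter that NRF2 is known to control. The genes were chosen by symbol, and all 10 were found among the 20325 genes of the deposited tables. The question was whether AA (ascorbic acid, vitamin C), which is an antioxidant, altered this programme. Pre-iPSCs are mouse cells arrested late in reprogramming, and those used here were a clonal line with a silent Nanog-GFP reporter. They were treated for 48 h (day 2) in embryonic stem cell medium without a feeder layer and received DMSO (the solvent control), AA (50 μg ml−1), 2i, which combines a MEK inhibitor (1 μM) with a GSK inhibitor (3 μM), or AA+2i. The medium in which the cells were maintained contained b-mercaptoethanol, itself a reducing agent. RNA of 3 biological replicates per condition, with the letters A, B and C, was sequenced, which gave 12 libraries. All cells came from the same line, so the p-values below measure the spread between cultures of that line and not between lines.

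NRF2 is held at a low level in unstressed cells because KEAP1 presents it to a ubiquitin ligase for degradation. Oxidants and electrophiles modify cysteines of KEAP1, NRF2 then accumulates, pairs with a small MAF protein and binds antioxidant response elements near its targets. Much of this control acts on the protein, so the mRNA of Nfe2l2 need not follow the activity of NRF2, and the targets are commonly read in its place. The targets make and recycle glutathione, reduce thioredoxin, quinones and peroxides, and break down haem.

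Depth, as summed expected counts, ran from 16173322 to 54392719 per library. All 10 genes passed the filter of at least 10 counts in at least 3 libraries, as did 13400 genes in all. Markers fixed for each cell type were summed as TPM (a level scaled for transcript length and for library depth). The 3 markers of the epithelial reprogramming intermediate (Cdh1, Epcam and Fut4) summed to between 98 and 149 in the DMSO libraries. They summed to between 218 and 328 under AA, 110 and 127 under 2i, and 253 and 305 under AA+2i. Fut4 was at no more than 0.12 TPM in any library, so Cdh1 and Epcam made up nearly all of this sum. The 7 pluripotency markers (Nanog, Esrrb, Zfp42, Dppa5a, Tdgf1, Utf1 and Dppa3) summed to between 133 and 255 in DMSO, 1555 and 2102 under AA, 52.5 and 67.5 under 2i, and 681 and 971 under AA+2i. Dppa5a and Tdgf1 made up most of this sum in every condition. From AA to AA+2i the means of Dppa5a (1438 to 674 TPM), Tdgf1 (354 to 127), Zfp42 (15.8 to 6.71) and Utf1 (5.88 to 1.73) were lower. Those of Nanog (17.8 to 36.6 TPM), Esrrb (0.687 to 2.53) and Dppa3 (1.64 to 13.8) were higher. The 8 fibroblast markers summed to at most 19.4 in any library, and 1 of them was at 0 in all libraries under 2i and 1 in all under AA+2i. These were bulk samples, in which fewer cells of a type and less RNA per cell cannot be told apart.

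The sequence that NRF2 recognises gives the programme its name, and it is shown here for 3 genes whose promoter held it before the start site, together with the AP-1 sites of Srxn1. RefSeq promoters (GRCm38.p6, 250 bases before to 50 bases after each start site) were available for 7 of the 10 genes, with 9 start sites between them. The core of the antioxidant response element, TGACNNNGC on either strand, was found in 4 of these 7 genes, Nfe2l2, Gclm, Txnrd1 and Srxn1. Counted by promoter, it was in 4 of their 9 and in 12.4% of all 32851 promoters. The AP-1 site TGANTCA was found in 1 of the 7 genes, Srxn1, where it occurred at 2 places. This was 1 of the 9 promoters, beside 7.81% of all promoters. The windows below are written 5′ to 3′ along the strand of the gene, with the matched letters in capitals. They lie at chr2:75704870-75704913 (Nfe2l2, minus strand), chr3:122245398-122245456 (Gclm, plus strand), chr10:82859089-82859147 (Txnrd1, plus strand), and chr2:152105397-152105453 and chr2:152105454-152105510 (Srxn1, plus strand).
Nfe2l2 antioxidant response element core: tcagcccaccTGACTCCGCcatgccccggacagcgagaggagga
Gclm antioxidant response element core, opposite strand: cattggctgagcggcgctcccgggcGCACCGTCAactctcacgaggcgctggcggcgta
Txnrd1 antioxidant response element core, opposite strand: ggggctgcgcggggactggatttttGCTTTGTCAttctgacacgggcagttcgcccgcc
Srxn1 AP-1 site, upstream: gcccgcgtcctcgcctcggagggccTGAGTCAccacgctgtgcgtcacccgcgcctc
Srxn1 AP-1 site, nearer the start: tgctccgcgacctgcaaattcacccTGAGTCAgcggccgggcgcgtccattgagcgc
The matches in Nfe2l2, Gclm and Txnrd1 began 240, 134 and 92 bases before the start site, and the AP-1 matches in Srxn1 102 and 45 bases before it. The TGACNNNGC match of Srxn1 lay 28 bases after the start site and is not printed. The AP-1 match of Srxn1 nearer the start is followed by gc, and with these bases it differs from TGACNNNGC only at the fixed C. Forms of the element with another base there were not searched. The windows of Nqo1, Gpx2 and Slc7a11 held neither motif, which says only that these letters were not in those bases. No binding of any factor was measured in these libraries.

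The level of Nfe2l2 mRNA overlapped between all 4 conditions, while Nqo1 and Gpx2 were the genes of the programme called as higher by edgeR without a GC correction. Other fits called more of the 10 genes, as given below. In the DMSO libraries the mean levels in TPM ran from Gsr (199) and Txnrd1 (170) through Nfe2l2 (114), Gclm (105), Nqo1 (95.1), Hmox1 (75.6), Gclc (65.5) and Slc7a11 (47.0) to Srxn1 (18.8) and Gpx2 (0.597). The 3 libraries of neighbours in this order overlapped, except between Txnrd1 and Nfe2l2, between Gclc and Slc7a11, between Slc7a11 and Srxn1, and between Srxn1 and Gpx2. Gpx2 was the only gene of the programme that was barely detected without AA.

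**Figure D1:**
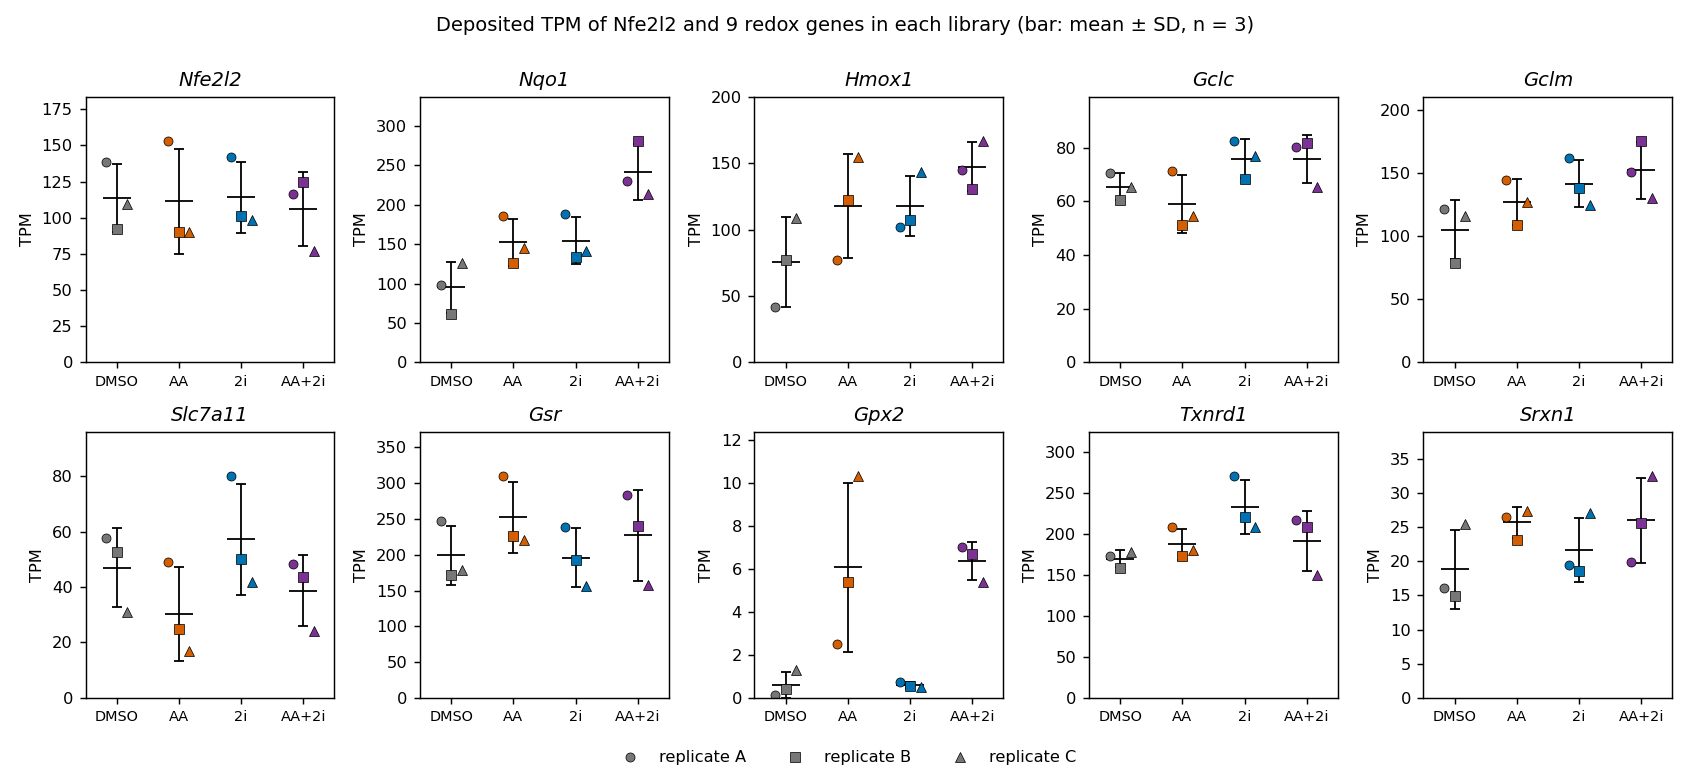
Deposited TPM of Nfe2l2 and 9 redox genes in each of 12 libraries, by condition, with a symbol for each replicate letter and bars for the mean ± SD (n = 3). Nqo1 is highest under AA+2i (214 to 281 TPM), Gpx2 is near 0 in the DMSO and 2i libraries and above 2 TPM in all 6 libraries under AA, and Nfe2l2 overlaps between all conditions.

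The level of Nfe2l2 (NM_010902.1; mm9 chr2:75513570-75542698, minus strand) was 139, 92.1 and 110 TPM in DMSO A, B and C and 153, 90.3 and 90.4 TPM under AA. Under 2i it was 142, 101 and 98.8 TPM, and under AA+2i 116, 125 and 76.9 TPM. The ranges of all 4 conditions overlapped. The difference between AA and DMSO was −0.04 on the log2 scale (SE 0.26), that between 2i and DMSO 0.16 (SE 0.26) and that between AA+2i and DMSO 0.07 (SE 0.26). Without a correction, none of these passed edgeR's quasi-likelihood test with Benjamini-Hochberg adjustment over all 13400 genes (adjusted p = 0.988, 0.755 and 0.866). The sign of the AA difference turned with a correction for GC content (0.05, adjusted p = 0.913). With it the 2i difference was 0.315 (SE 0.13, edgeR adjusted p = 0.149) and the AA+2i difference 0.324 (SE 0.13, adjusted p = 0.103). With the replicate letter as a block as well, those for 2i and AA+2i passed (0.319 and 0.334, adjusted p = 0.0388 and 0.0233).

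Nqo1, the quinone reductase widely used as a readout of NRF2, rose with the combination. Its level (NM_008706.1; mm9 chr8:109912125-109927106, minus strand) was 97.9, 62.03 and 126 TPM in DMSO, 185, 126 and 146 TPM under AA, 188, 134 and 141 TPM under 2i, and 230, 281 and 214 TPM under AA+2i. The means were 95.1 ± 31.8, 152 ± 30.3, 154 ± 29.5 and 242 ± 35.0 TPM (SD, n = 3). All libraries of each treatment stood above all DMSO libraries, and the AA+2i libraries stood above all others, while AA and 2i overlapped. AA+2i against DMSO was a 2.86-fold rise (log2 fold change 1.51, SE 0.29, edgeR adjusted p = 0.00858). This call held without each library in turn (adjusted p from 0.00697 to 0.0341), but it was lost without all libraries of letter B (adjusted p = 0.152) or of letter C (0.0656). AA alone (0.67, SE 0.28, adjusted p = 0.458) and 2i alone (0.85, SE 0.28, adjusted p = 0.143) did not pass against DMSO in the uncorrected edgeR test. Adding AA to 2i gave 0.67 (SE 0.28, adjusted p = 0.456) and adding 2i to AA gave 0.85 (SE 0.28, adjusted p = 0.124), so neither step passed by itself. With the GC correction the step from AA to AA+2i passed (1.01, SE 0.24, adjusted p = 0.0150), as did 2i against DMSO (0.98, adjusted p = 0.0203), and without DMSO B the step from AA passed as well (adjusted p = 0.026). Nqo1 is also a known target of the aryl hydrocarbon receptor, whose own gene Ahr went from a mean of 1.62 TPM in DMSO to 0.853 under AA, 3.03 under 2i and 4.42 under AA+2i. The part of the receptor in the Nqo1 levels was not tested.

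Hmox1, haem oxygenase 1, which turns haem into biliverdin, iron and carbon monoxide, also had its lowest mean in DMSO and its highest under AA+2i. Its level (NM_010442.1; mm9 chr8:77617490-77624495, plus strand) was 41.5, 76.8 and 109 TPM in DMSO, 76.9, 122 and 155 TPM under AA, 102, 107 and 143 TPM under 2i, and 145, 130 and 167 TPM under AA+2i. Only the AA+2i libraries stood clear of the DMSO libraries. AA+2i against DMSO was 1.18 on the log2 scale (SE 0.38) and did not pass (edgeR adjusted p = 0.0861). It passed with DESeq2 (adjusted p = 0.0314), with the GC correction (0.94, SE 0.23, adjusted p = 0.0143) and without DMSO C (adjusted p = 0.0336), in which Hmox1 was highest among the controls. The values for AA and for 2i alone were 0.68 (SE 0.38) and 0.83 (SE 0.38), with adjusted p = 0.706 and 0.311.

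None of the 3 genes of glutathione synthesis passed in the uncorrected edgeR test. Gclc and Gclm encode the catalytic and the modifier subunit of glutamate-cysteine ligase, the rate-limiting enzyme, and Slc7a11 encodes the transporter xCT that imports cystine for it. Gclm (NM_008129.1; mm9 chr3:121948475-121972902, plus strand) was at 121, 78.3 and 116 TPM in DMSO, 145, 109 and 127 TPM under AA, 161, 138 and 124 TPM under 2i, and 151, 175 and 130 TPM under AA+2i. The 2i and the AA+2i libraries all stood above the DMSO libraries, and the AA libraries did not. AA+2i against DMSO was 0.71 (SE 0.22, edgeR adjusted p = 0.0819) and passed with DESeq2 (adjusted p = 0.0334) and with the GC correction (1.21, SE 0.26, adjusted p = 0.00735).

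Gclc (NM_010295.1; mm9 chr9:77602342-77642292, plus strand) was at 70.7, 60.6 and 65.2 TPM in DMSO, 71.3, 51.0 and 54.4 TPM under AA, 82.5, 68.2 and 77.0 TPM under 2i, and 80.3, 81.7 and 65.4 TPM under AA+2i. These ranges overlapped between 2i or AA+2i and DMSO by a small margin, and AA B and AA C had the lowest values. The step from AA to AA+2i was 0.54 (SE 0.18, edgeR adjusted p = 0.114), and it passed with DESeq2 (adjusted p = 0.0335) and with the GC correction (0.68, SE 0.13, adjusted p = 0.00416).

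Slc7a11 had a lower mean level with AA than without it, both in the absence and in the presence of 2i, but neither difference passed. Its level (NM_011990.1; mm9 chr3:50168858-50247535, minus strand) was 57.7, 52.6 and 30.9 TPM in DMSO, 49.2, 24.8 and 16.8 TPM under AA, 80.1, 50.0 and 42.0 TPM under 2i, and 48.3, 43.6 and 24.0 TPM under AA+2i. Letter A was highest and letter C lowest in every condition, and the conditions overlapped. AA against DMSO was −0.63 (SE 0.38, edgeR adjusted p = 0.762) and AA+2i against 2i was −0.56 (SE 0.38, adjusted p = 0.882). With the GC correction the values were −0.46 (SE 0.16, adjusted p = 0.163) and −0.39 (SE 0.16, adjusted p = 0.244). Slc7a11 has the lowest GC content of the 10 genes (40.7%), and the fitted curve of genes with that content lay between −0.57 (AA+2i C) and 0.84 (DMSO A) from the mean of the libraries on the log2 scale. The 2i and AA+2i values of Slc7a11 therefore depended on the correction, with 0.46 (SE 0.38, adjusted p = 0.572) before it and 0.82 (SE 0.16, adjusted p = 0.00687) after it for 2i, and −0.10 (SE 0.38) before it and 0.42 (SE 0.16, adjusted p = 0.0886) after it for AA+2i.

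Among the enzymes that use and recycle glutathione, Gpx2 rose under AA both in the absence and in the presence of 2i. Gpx2 is a glutathione peroxidase best known from the epithelium of the gut. Its level (NM_030677.1; mm9 chr12:77893322-77896541, minus strand) was 0.12, 0.39 and 1.28 TPM in DMSO and 2.52, 5.4 and 10.3 TPM under AA. Under 2i it was 0.74, 0.54 and 0.50 TPM, and under AA+2i 7.03, 6.71 and 5.39 TPM. Every library under AA stood above every library without it, and the DMSO and 2i libraries overlapped. The counts behind these values were 1, 9 and 11 in DMSO, 25, 156 and 133 under AA, 8, 7 and 5 under 2i, and 74, 87 and 75 under AA+2i, so the level without AA was known only roughly. AA against DMSO was a 10.9-fold rise (log2 fold change 3.45, SE 0.69, edgeR adjusted p = 0.0363) and AA+2i against 2i a 10.8-fold rise (3.43, SE 0.68, adjusted p = 0.0428). AA+2i against DMSO was 3.67 (SE 0.69, adjusted p = 0.00825), 2i against DMSO 0.24 (SE 0.75, adjusted p = 0.875) and AA+2i against AA 0.21 (SE 0.57, adjusted p = 0.854).

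For AA against DMSO both the size of the Gpx2 change and its call varied when single libraries were left out. The call was also lost without some libraries of neither group, with the size unchanged (without 2i A 3.45, edgeR adjusted p = 0.0563). For AA against DMSO the log2 fold change lay between 2.82 and 4.49 when 1 library was left out, and the adjusted p was under 0.05 in 2 of 12 cases, without AA A and without DMSO C (range 0.0159 to 0.181). For AA+2i against 2i it lay between 3.37 and 3.57, with the call held in 4 of 12 cases, without DMSO A, DMSO C, AA A or AA C (range 0.0203 to 0.237). For AA+2i against DMSO the call held in 12 of 12 cases (highest adjusted p 0.0451). Without all libraries of 1 letter the AA call was lost each time (adjusted p from 0.0762 to 0.982), as was that of AA+2i against 2i (0.0918 to 0.959), and AA+2i against DMSO was lost without letter B (0.283). With DESeq2 the adjusted p of the AA comparison was 3.78e-05, and with the GC correction 0.00559. The summed epithelial and the summed pluripotency markers given above were also higher in every library with AA than in every library without it, and their part in the Gpx2 result was not tested. Gpx2 lies within the bounds of Fntb on the opposite strand, with 0 of its 1067 exonic bases shared with exons of Fntb. Fntb was at 11.9, 24.1 and 26.0 TPM in DMSO and 18.6, 40.5 and 58.4 TPM under AA, a log2 difference of 0.98 (SE 0.44, adjusted p = 0.525). The counting did not use strand, so reads of unspliced Fntb over Gpx2 could not be set apart.

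Glutathione reductase (Gsr; NM_010344.1; mm9 chr8:34762995-34808635, plus strand), which regenerates reduced glutathione with NADPH, was at 247, 172 and 179 TPM in DMSO, 310, 227 and 221 TPM under AA, 238, 193 and 156 TPM under 2i, and 284, 240 and 158 TPM under AA+2i. The 4 conditions overlapped, and none of the differences passed in the uncorrected edgeR test (AA against DMSO 0.35, SE 0.24, edgeR adjusted p = 0.851). Letter A had the highest level in every condition.

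Cytosolic thioredoxin reductase (Txnrd1; 4 RefSeq transcripts, mm9 chr10:82296696-82360469, plus strand) reduces thioredoxin, and its level was highest under 2i. It was at 173, 158 and 178 TPM in DMSO, 209, 173 and 180 TPM under AA, 271, 221 and 209 TPM under 2i, and 217, 208 and 150 TPM under AA+2i. The 2i libraries stood above the DMSO libraries, and AA+2i overlapped with both. The difference between 2i and DMSO was 0.63 (SE 0.17, edgeR adjusted p = 0.0703). It passed with DESeq2 (adjusted p = 0.00371), with TMM factors (0.0499) and with the GC correction (0.65, SE 0.12, adjusted p = 0.00414). AA against DMSO was 0.15 (SE 0.17, adjusted p = 0.95).

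Sulfiredoxin (Srxn1; NM_029688.1; mm9 chr2:151931252-151937112, plus strand), which restores overoxidised peroxiredoxins, was at 16.02, 14.95 and 25.4 TPM in DMSO, 26.5, 23.1 and 27.4 TPM under AA, 19.4, 18.6 and 27.1 TPM under 2i, and 19.9, 25.6 and 32.4 TPM under AA+2i. DMSO C lay within the range of each treatment, so no treatment stood clear of DMSO. Letter C had the highest level in every condition. AA+2i against DMSO was 0.68 (SE 0.33, edgeR adjusted p = 0.219) and AA against DMSO 0.46 (SE 0.32, adjusted p = 0.865). The AA+2i difference passed in edgeR with the replicate letter as a block (0.69, adjusted p = 0.0226). It did not pass with the GC correction (0.41, adjusted p = 0.318).

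Read as a group against DMSO, 1 of the 10 genes rose and 0 fell under AA (Gpx2), where 1.34% of all tested genes passed, 0.866% up and 0.47% down. Under 2i 0 passed by edgeR, beside 4.42% of all genes, 1.59% up and 2.83% down. There 3 of the 10 had an unadjusted p under 0.05, beside 16.1% of all genes, and 1 passed by DESeq2, beside 1099 of all 13400 genes. AA+2i raised 2 genes (Nqo1 and Gpx2) and lowered 0, where 8.34% of all genes passed, 3.93% up and 4.41% down. The median log2 fold change of the 10 genes was 0.31 under AA, 0.43 under 2i and 0.54 under AA+2i, while that of all tested genes was −0.01, −0.02 and −0.02. Under AA 7 of the 10 values were positive, under 2i 10 and under AA+2i 9, beside 48.7%, 48.5% and 49.1% of all genes. On log2(TPM + 1) with limma, the value of Gsr under 2i (−0.03) and that of Nfe2l2 under AA+2i (−0.11) turned negative, and with the GC correction that of Nfe2l2 under AA (0.05) and that of Slc7a11 under AA+2i (0.42) turned positive. The number of genes whose treated libraries all stood above the DMSO libraries was 2 under AA, 3 under 2i and 4 under AA+2i, where 5.36%, 5.19% and 9.6% of all genes did so. In 0 of the 10 did they all stand below, as they did in 4.13%, 14.7% and 22.5% of all genes. The summed level of the 10 genes was 768 to 964 TPM in DMSO, 951 to 1228 under AA, 1020 to 1285 under 2i and 1023 to 1317 under AA+2i.

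**Figure D2:**
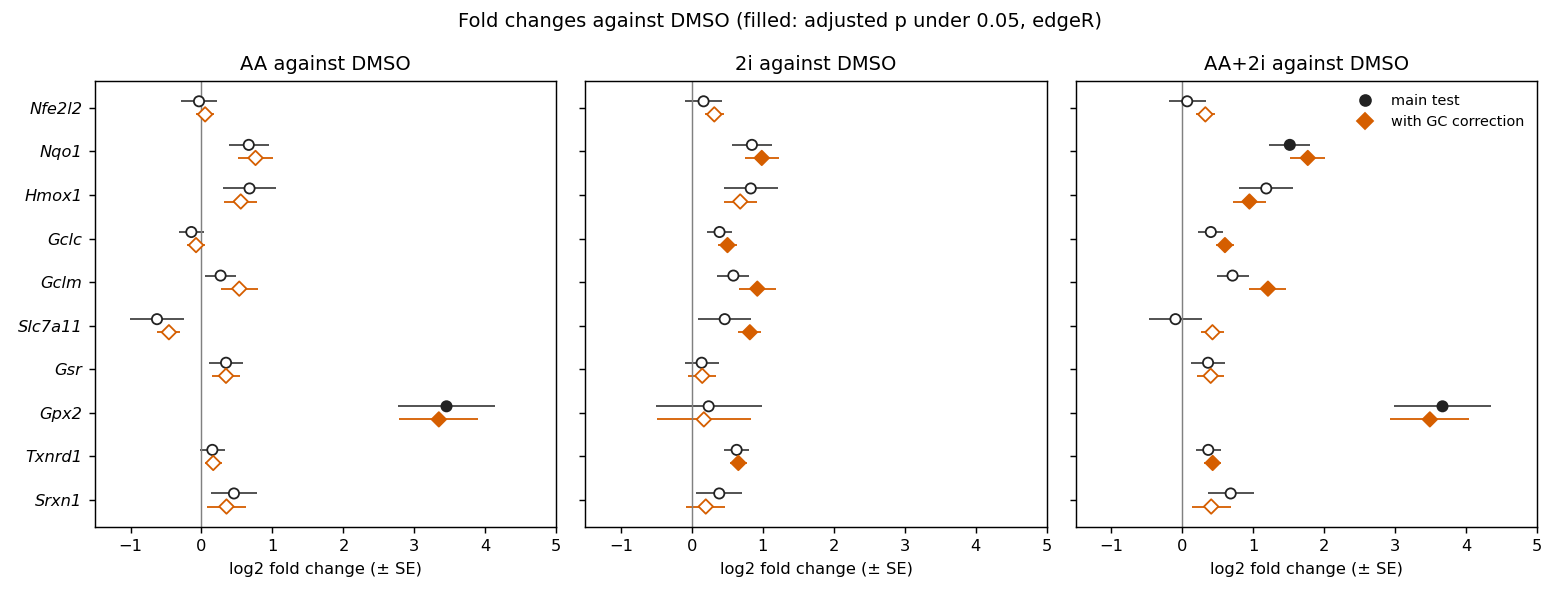
Log2 fold changes of the 10 genes against DMSO (points, with bars for ± SE) for AA, 2i and AA+2i, from edgeR as described (circles) and with the GC correction (diamonds), filled where the adjusted p was under 0.05. Gpx2 lies above 3 under AA and AA+2i and near 0 under 2i, and the correction fills 5 genes under 2i and 6 under AA+2i.

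The GC correction changed the count for 2i and for the combination. With it 5 of the 10 genes rose under 2i (Nqo1, Gclc, Gclm, Slc7a11 and Txnrd1), where 4.51% of 13297 genes rose. Under AA+2i 6 rose (Nqo1, Hmox1, Gclc, Gclm, Gpx2 and Txnrd1), where 8.95% of these genes rose. Under AA the count stayed at 1, Gpx2, where 2.57% rose. None fell in these 3 comparisons.

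Adding AA to cells under 2i again raised 1 gene of the 10, Gpx2, where 0.91% of all genes passed and 0.761% rose. The median of the 10 log2 fold changes was 0.17, beside 0.001 for all genes, and 7 were positive. This comparison and AA against DMSO had no library in common. The sign was the same in both for 8 of the 10 genes (80.0%), and for 74.1% of all tested genes. In 2 genes, Nqo1 and Gpx2, the AA+2i libraries stood above all 2i libraries, where 9.72% of all genes did so, and 0 stood below, where 6.35% did. With the GC correction the call was again Gpx2 alone, where 3.32% of genes rose. Adding 2i to AA gave positive values for 10 of 10 genes, with a median of 0.33 beside −0.01 for all genes, but with limma on log2(TPM + 1) the values of Gsr (−0.17), Nfe2l2 (−0.06) and Srxn1 (−0.01) were negative. By edgeR 0 passed there, beside 6.1% of all genes, 2.81% up and 3.29% down. An unadjusted p under 0.05 was found for 2 of the 10, beside 2281 of all 13400 genes, and 1 passed by DESeq2, beside 1309 of all genes. In 1 gene, Nqo1, the AA+2i libraries stood above all AA libraries, where 7.66% of all genes did so, and 0 stood below, where 16.8% did. With the GC correction 3 passed, Nqo1, Gclc and Slc7a11, where 6.54% of genes rose.

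**Figure D3:**
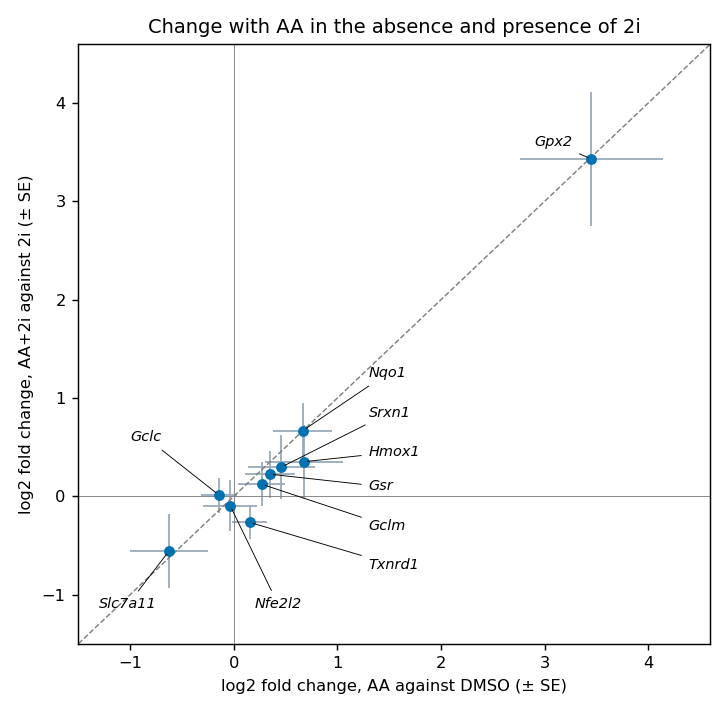
Log2 fold change under AA in the absence of 2i (AA against DMSO, horizontal axis) and in its presence (AA+2i against 2i, vertical axis) for the 10 genes, with bars for ± SE and a dashed line where both are equal. Gpx2 lies near 3.4 on both axes, and the other 9 genes lie between −0.7 and 0.7.

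Whether the change under AA differed in the presence of 2i was tested by the interaction. By edgeR 0 of the 10 genes passed, where 0.0149% of all genes passed. An unadjusted p under 0.05 was found for 0 of the 10, beside 2.31% of all genes. By DESeq2 0 passed, beside 26 of all 13400 genes. The interaction of Gpx2 was −0.02 on the log2 scale with an SE of 0.79, the widest of the 10 genes. That of Nqo1 was 0.002 (SE 0.40). The values ran from −0.42 (SE 0.24) for Txnrd1 to 0.15 (SE 0.25) for Gclc. Txnrd1 was at 0.63 for 2i alone and 0.37 for AA+2i against DMSO, and its interaction did not pass (edgeR adjusted p = 1.0).

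A further 66 genes of the pathway and of neighbouring redox systems were examined in 9 lists, of which 63 were tested. They covered regulators of NRF2, NADPH supply, thioredoxins and peroxiredoxins, other glutathione enzymes, superoxide and peroxide removal, detoxification and export, iron and haem, the amino-acid response through ATF4, and the aryl hydrocarbon receptor. Under AA 0 of the 63 passed in either direction against DMSO by edgeR (1.34% of all genes did), and 8 had an unadjusted p under 0.05 (9.43% of all genes). By DESeq2 1 passed, beside 454 of all 13400 genes, and with the GC correction 2 passed, beside 558 of 13297. Under 2i 3 rose and 1 fell, where 1.59% of all genes rose and 2.83% fell. Under AA+2i 5 rose and 1 fell, where 3.93% rose and 4.41% fell. Adding AA to 2i changed 0 of them by edgeR (0.91% of all genes passed), with 4 at an unadjusted p under 0.05 (9.53% of all genes). By DESeq2 1 passed there, beside 468 of all 13400 genes, and with the GC correction 0 passed, beside 622 of 13297. Adding 2i to AA raised 4 and lowered 1, where 2.81% of all genes rose and 3.29% fell. The median log2 fold change over the 63 genes was 0.20 under AA, 0.33 under 2i and 0.49 under AA+2i against DMSO.

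Of the 9 regulators, Maff, a small MAF protein that can pair with NRF2, fell under 2i. It was at 21.4, 28.1 and 39.7 TPM in DMSO, 25.5, 35.3 and 29.0 TPM under AA, 11.7, 10.9 and 10.2 TPM under 2i, and 7.45, 9.94 and 8.97 TPM under AA+2i. All 6 libraries under 2i stood below all 6 without it, and the differences from DMSO were −1.27 (SE 0.27, edgeR adjusted p = 0.0257) under 2i and −1.55 (SE 0.28, adjusted p = 0.00604) under AA+2i. Keap1, the adaptor that directs NRF2 to degradation, did not pass in any comparison and was at 25.3 ± 10.8 TPM in DMSO, 30.5 ± 13.2 under AA, 27.8 ± 7.89 under 2i and 32.6 ± 7.43 under AA+2i (SD, n = 3). Of the 9 tested genes of detoxification and export, Akr1b8, an aldo-keto reductase, rose under 2i. Its level was 6.07, 6.76 and 9.84 TPM in DMSO, 13.1, 14.1 and 14.5 TPM under AA, 18.1, 17.8 and 13.4 TPM under 2i, and 25.1, 30.7 and 21.7 TPM under AA+2i. Like Nqo1, all its treated libraries stood above DMSO and its AA+2i libraries above all others. The log2 fold changes against DMSO were 0.90 (SE 0.25, adjusted p = 0.14) under AA, 1.29 (SE 0.25, adjusted p = 0.0147) under 2i and 1.97 (SE 0.25, adjusted p = 0.00111) under AA+2i.

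The remaining calls were in the lists of the aryl hydrocarbon receptor and of ATF4. Cyp1b1, a cytochrome P450 induced through the receptor, was at 0.13 to 0.19 TPM in DMSO and 0.03 to 0.06 under AA, and at 1.53 to 5.78 under 2i and 2.57 to 3.32 under AA+2i (adjusted p = 0.00106 and 0.000856 against DMSO). Cyp1a1, another such enzyme, had at most 3 counts in a DMSO library and at most 1 in an AA library, and was at 0.79 to 4.27 TPM under 2i and 1.31 to 3.58 under AA+2i (adjusted p = 0.0116 and 0.008). Ahr was called under AA+2i against DMSO (1.65, SE 0.29, adjusted p = 0.00557). Tiparp, of the same list, went the other way, from a mean of 161 TPM in DMSO to 129 under AA, 87.7 under 2i and 69.7 under AA+2i. It did not pass against DMSO under 2i (−0.72, SE 0.41, edgeR adjusted p = 0.434) or AA+2i (−1.05, SE 0.41, adjusted p = 0.15). Ahrr had at most 3 counts in a library and was not tested. The stress factor Atf3 went from 0.50, 0.89 and 1.41 TPM in DMSO to 2.15, 2.81 and 4.85 TPM under AA+2i (2.06, SE 0.53, adjusted p = 0.0372). The lists of NADPH supply, thioredoxins, other glutathione enzymes, superoxide removal, and iron and haem held no gene that passed by edgeR without the GC correction in any of the 6 tests. For AA+2i against DMSO, where DESeq2 called 1879 genes in all, it called 1 each of NADPH supply, glutathione enzymes, and iron and haem. For AA+2i against 2i it called 1 glutathione enzyme, beside 468 genes in all.

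**Figure D4:**
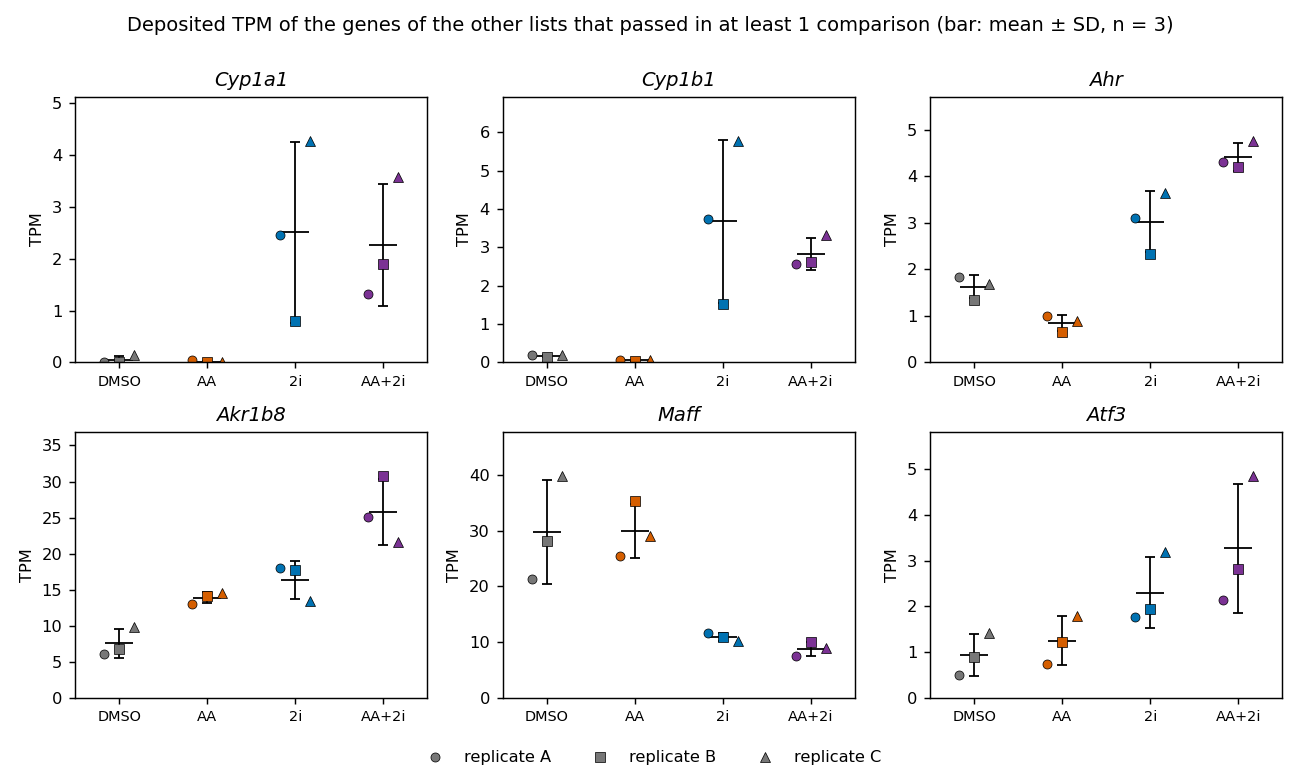
Deposited TPM in each library of the 6 genes of the 9 further lists that passed in at least 1 comparison, with bars for the mean ± SD (n = 3). Cyp1a1 and Cyp1b1 are near 0 in all libraries without 2i, Maff is lower in all libraries under 2i, and Akr1b8 is highest under AA+2i (21.7 to 30.7 TPM).

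The tested genes whose log2 CPM (counts scaled for depth) followed the called members most closely over the 12 libraries were listed as a description. For Nqo1 these were Bcat1 (Pearson r = 0.956), Stx3 (0.955) and Ephx2 (0.951), of which Ephx2 went from a mean of 0.693 TPM in DMSO to 3.75 under AA, 4.25 under 2i and 11.5 under AA+2i. For Gpx2 they were Serpina3m (0.971), Amt (0.968) and Gdf3 (0.966), of which Gdf3 went from 3.81 TPM in DMSO to 44.4 under AA, 3.30 under 2i and 41.1 under AA+2i. These 12 libraries share 4 conditions and 3 letters and were searched over 13400 genes, so they are not independent points.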

How the data were processed

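RNA was sequenced from 12 libraries of mouse pre-iPSCs, 3 for each of 4 conditions at 48 h. Per the labels and methods, libraries were made with the TruSeq kit, reads were trimmed and filtered, aligned with Bowtie to RefSeq transcripts of mm9 and quantified by the authors with RSEM 1.2.4 (version from the submitters' processing notes), without use of strand. The authors deposited for each library an expected count per gene, which is not normalized and divides reads shared by several genes among them, with TPM and FPKM, which are scaled for length and depth. FPKM was used only to recompute 1 malformed TPM value.

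After rounding, the quasi-likelihood test of edgeR 4.0.16 (R 4.3.3) was applied to the expected counts, scaled by RLE factors, in 1 model with a mean per condition (8 residual degrees of freedom). It covered 13400 genes, those that reached 10 counts in 3 or more libraries. A gene was called at a Benjamini-Hochberg adjusted p under 0.05. Standard errors were derived from the F statistic of each log2 fold change. TPM served for levels. The GC correction entered a loess curve (span 0.4) of each library's deviation in log2 CPM against GC content as an offset, for 13297 genes. Other alternatives were TMM factors, DESeq2 1.42.0, limma 3.58.1 on log2(TPM + 1), removal of the count filter, the replicate letter as a block, and leaving out each library or letter. The edgeR step was tested on simulated counts for AA against DMSO, and the DESeq2 and limma steps were not.

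The 10 genes are all named whatever their change, and of the other lists the genes that passed in at least 1 comparison, at most 4 per list and comparison. Keap1, Tiparp and Ahrr were added after their values were seen. The members and the lists were chosen with earlier results of these data known. The authors tested their libraries with EB-seq, which was not run here. No reads were reprocessed. Summed expected counts had a median of 21854761 per library, and low counts such as those of Gpx2 without AA limit precision.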

Additional observations from a re-analysis of the deposited data

How the results depend on the processing

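The log2 fold changes of the 10 genes, taken over the 5 comparisons of conditions and, where given, the interaction, were 52 values. They were recomputed 1144 times, and kept both direction and side of the threshold in 1022 cases, passed only in the alternative in 51, lost the call in 27 and changed sign in 44. With CPM in place of TPM, 27 of 30 ratios moved by less than the spread between replicates. Removing the count filter changed no call among the 10 genes.

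The number of the 10 genes called under 2i went from 0 to 1 with TMM factors, 1 with DESeq2 and 5 with the GC correction. For AA+2i against DMSO it went from 2 to 4 with DESeq2 and 6 with the correction, and for AA+2i against AA from 0 to 1 and 3. Over all genes, DESeq2 called 454 under AA, 1099 under 2i, 1879 under AA+2i, 468 for AA+2i against 2i, 1309 for AA+2i against AA and 26 for the interaction, and the GC correction 558, 1596, 2615, 622, 1995 and 0, while edgeR without it called 179, 592, 1117, 122, 817 and 2. With limma 13 passed for the interaction. The cause of these differences was not tested.

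The letters were not taken as pairs, since deviations from the condition means correlated between libraries of the same letter by −0.588 to 0.894 (mean 0.401, 18 pairs of libraries), although 11 of 12 libraries correlated best with their own letter, which is a hint from the data and not the design. With the letter as a replicate block, 594 genes passed under AA, 1782 under 2i, 4229 under AA+2i, 606 for AA+2i against 2i, 1992 for AA+2i against AA and 4 for the interaction, and 3, 6 and 3 of the 10 genes passed under 2i, AA+2i against DMSO and AA+2i against AA. With the block and the GC correction together the totals were 1443, 3288, 4813, 1530, 3667 and 26, and among the 10 genes 4, 7, 9, 2 and 5 for the first 5 of these comparisons. Among the calls that the block alone added were Nqo1 under 2i (adjusted p = 0.0443) and for AA+2i against AA (0.0415). For AA+2i against DMSO it added Hmox1 (edgeR adjusted p = 0.00211), Gclc (0.0433), Gclm (0.0223) and Srxn1 (0.0226). With the correction as well, they included Nqo1 (0.811, adjusted p = 0.0132), Hmox1 (0.579, 0.0117) and Gclm (0.54, 0.0333) beside Gpx2 under AA, Nqo1 beside Gpx2 for AA+2i against 2i (0.783, 0.0143), Nfe2l2 under 2i (0.319, 0.0388) and AA+2i (0.334, 0.0233), and Gsr under AA+2i (0.405, 0.0168). Gpx2 and Nqo1 were called under AA+2i against DMSO in all of these fits.

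Several signs turned. With the GC correction, and then with the block as well, Nfe2l2 was 0.051 and 0.055 under AA and 0.009 and 0.015 for AA+2i against 2i, and Slc7a11 was 0.424 and 0.423 for AA+2i against DMSO. With limma on log2(TPM + 1), Gsr was −0.025 under 2i, Nfe2l2 −0.11 under AA+2i, Gclc −0.005 for AA+2i against 2i, and Gsr, Nfe2l2 and Srxn1 −0.174, −0.055 and −0.007 for AA+2i against AA.

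Leaving out 1 library or 1 letter, the genes called ranged from 0 to 166 under AA, 1 to 657 under 2i, 18 to 1407 under AA+2i, 0 to 159 for AA+2i against 2i, 7 to 891 for AA+2i against AA and 0 to 3 for the interaction. The lowest of each of the first 5 was without letter B, which holds the deepest DMSO and AA libraries. Of the 10 genes, 0 to 1 were called under AA, 0 to 3 under AA+2i against DMSO, 0 to 1 for AA+2i against 2i and 0 to 1 for AA+2i against AA. Signs turned within these ranges: under AA Nfe2l2 −0.285 to 0.177; under 2i Nfe2l2 −0.028 to 0.375, Gsr −0.024 to 0.367 and Gpx2 −0.254 to 1.345; under AA+2i Nfe2l2 −0.213 to 0.278 and Slc7a11 −0.295 to 0.134. For AA+2i against 2i they were Nfe2l2 −0.255 to 0.041, Gclc −0.067 to 0.091 and Srxn1 −0.012 to 0.548, and for AA+2i against AA Nfe2l2 −0.102 to 0.353, Gsr −0.137 to 0.16, Gpx2 −0.207 to 0.887 and Srxn1 −0.078 to 0.416. Depth limits Gpx2 most, with at most 11 counts in a library without AA.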

Other observations

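Some further genes of the lists passed by edgeR only with the GC correction, and these were named after their values were seen. Over the 9 lists with the correction, 10 genes rose and 2 fell under 2i, and 13 rose and 2 fell under AA+2i, of 63 tested. These totals include the calls made without it, 3 up and 1 down under 2i and 5 up and 1 down under AA+2i. Of all genes 4.51% and 8.95% rose with the correction, and 1596 and 2615 of 13297 passed in either direction. Gained calls included falls of Gpx7 under 2i (−0.88, adjusted p = 0.0441) and Tiparp under AA+2i (−0.49, 0.0244). The regulator Bach1 rose under AA+2i (0.46, 0.0439). Osgin1, a stress-induced growth inhibitor regarded as a target of NRF2, was at 0.06, 0.62 and 0.19 TPM in DMSO, 0.05, 0.46 and 0.70 TPM under AA, 0.44, 1.07 and 2.32 TPM under 2i, and 1.72, 1.23 and 3.13 TPM under AA+2i. Its log2 fold change under AA+2i was 2.92 (SE 0.88, edgeR adjusted p = 0.0669), and 2.17 with the correction (adjusted p = 0.00311). Pgd, which supplies NADPH in the pentose phosphate pathway, was at 78.9, 197 and 172 TPM in DMSO and 354, 276 and 331 TPM under AA+2i (1.34, SE 0.41, adjusted p = 0.0719, and 1.03 with an adjusted p of 0.00519 after the correction). Glrx, glutaredoxin, was at 10.2, 6.57 and 9.99 TPM in DMSO and 12.5, 16.2 and 11.6 TPM under AA+2i (0.77, SE 0.26, adjusted p = 0.101, and 1.07 with an adjusted p of 0.0102 after the correction). Under AA alone the genes gained by the correction were Akr1b8 (0.88, adjusted p = 0.0287) and Trib3, a pseudokinase of the ATF4 response (1.18, adjusted p = 0.0257). The part that GC content of the libraries plays in these calls was not tested.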
